A study of Mus musculus with 22 samples.

Results

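Cytochrome P450 genes were taken as all annotated genes whose symbol begins with Cyp followed by a digit, without the Cyp4a genes and Cyp51. This rule gave 93 of the 37310 annotated mouse genes. All 93 lie on autosomes, which carry 34653 genes, and all 93 had a row in the count files. Wild-type mice were compared with mice homozygous for the Rlf MommeD28 allele, a null allele from an ENU mutagenesis screen. RNA-seq of E14.5 livers comprised 3 samples of each genotype, of which replicates 1 and 2 were male and replicate 3 was female. Whole-genome bisulphite sequencing (WGBS) comprised 2 samples of each genotype for E10.5 whole embryos (all male), E14.5 livers (replicate 1 male, replicate 2 female) and E18.5 livers (all female). Every animal, controls included, was FVB/NJ and homozygous for a multi-copy GFP transgene whose expression is driven by HS-40 and a human alpha-globin promoter, and embryos came from matings of heterozygotes. Stage and tissue differ together between the E10.5 and E14.5 data and cannot be told apart there, and sex differs in part.

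Cytochrome P450 enzymes are heme proteins that oxidise small molecules with electrons passed on from P450 oxidoreductase in the endoplasmic reticulum or from ferredoxin in mitochondria. The Cyp1, Cyp2 and Cyp3 families contain most of the enzymes that act on drugs and other foreign compounds. Other families make bile acids and steroid hormones, or break down retinoic acid, vitamin D and fatty acids. Many liver P450 genes are known to be switched on late, around and after birth, while the fetal liver is mainly a site of blood formation. In bulk liver, fewer cells of a type and less RNA per cell cannot be told apart.

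The RNA-seq libraries held 12928313 to 14621004 counts. Rlf mRNA did not separate the genotypes and so gave no check of the labels. Its level was 70.4 ± 1.73 library-scaled counts (CPM, as defined in the methods) in wild-type livers and 74.6 ± 6.28 CPM in mutants (SD, n = 3 each; adjusted p = 0.646 by edgeR's quasi-likelihood test). The 12 hepatoblast markers were all expressed, with a summed level of 59340 to 70344 CPM in wild-type livers and 72609 to 84323 CPM in mutants, and none of the 12 was called. Most of this sum was Alb, at means of 26651.8 CPM in wild type and 32165.5 CPM in mutants, and Afp, at 29804.1 and 33742.5 CPM. The log2 fold changes of the 12 ranged from -0.045 to 0.35, with a median of 0.11. The WGBS libraries had 17.2 to 36.1 reads per covered autosomal CpG. Autosomal methylation was 70.6% and 72.0% in wild-type embryos and 73.2% and 73.9% in mutant embryos. In livers of E14.5 it was 56.4% and 58.5% in wild type and 60.3% and 59.2% in mutants. It ranged from 61.4% to 65.5% in livers of E18.5, where mutant replicate 1 stood above the other 3 libraries.

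The fetal liver expressed a small set of P450 genes. No count was recorded in any of the 6 livers for 20 of the 93 genes, 46 had counts but did not pass the filter on low counts, and 27 passed it. The 12 genes with the highest CPM held 85.3% of the P450 total, which summed to 336 to 351 CPM in wild-type livers and 321 to 356 CPM in mutants. Per kilobase of exon, the highest mean levels over the 6 livers were 28.0 CPM per kb for Cyp3a16, a fetal member of the drug-metabolising Cyp3a group, and 21.6 CPM per kb for Cyp2c68. Cyp20a1, an orphan P450, followed at 17.4 CPM per kb and Cyp2c70, which hydroxylates bile acids in mice, at 15.04 CPM per kb. None of the 7 steroid hormone genes and none of the 3 retinoic acid genes passed the filter.

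Mutants had less mRNA of 5 P450 genes. All 5 belong to the xenobiotic group, as do 14 of the 27 P450 genes tested, and whether the groups differ in this was not tested. Groups were set by gene symbol alone, so this one also holds Cyp2c44, an epoxygenase, and Cyp2d9, a steroid hydroxylase gene. The 5 were Cyp2c44, Cyp3a11 and 3 genes of the Cyp2d cluster, Cyp2d26, Cyp2d9 and Cyp2d37-ps. These 5 were called lower among the 27 P450 genes tested, beside 0.691% of all 14183 genes tested, and no P450 gene was called higher, beside 0.698% of all genes. A call is an adjusted p below 0.05 in edgeR's quasi-likelihood test. Without wild-type replicate 1 or mutant replicate 1 Cyp2d37-ps alone was called, when calls over all genes, in both directions, fell from 197 to 94 and 66. Without wild-type replicate 3 or mutant replicate 2 there were 3 lower calls (105 and 115 over all genes). Without mutant replicate 3 there were 2 lower calls, and Cyp3a16 was called higher (105 over all genes). Over the 27 genes the median log2 fold change was -0.0043, and over all genes it was -0.0017.

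Cyp2c44, an epoxygenase of arachidonic acid, had 33.1, 28.7 and 28.1 CPM in wild-type livers and 20.5, 21.6 and 17.97 CPM in mutants. All 3 mutants lay below all 3 wild-type livers. The log2 fold change was -0.58 ± 0.10 (SE; edgeR adjusted p = 0.0143). Cyp3a11, a main drug-metabolising P450 of adult mouse liver, had 12.97, 11.5 and 10.03 CPM in wild-type livers and 5.98, 6.35 and 7.16 CPM in mutants. The groups again did not overlap, and the log2 fold change was -0.82 ± 0.14 (SE; edgeR adjusted p = 0.0143). Of the 50-base stretches in the exons of Cyp3a11, 85.6% occurred once in the genome, so part of its reads could be shared with other Cyp3a genes.

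Its relative Cyp3a16 lay in the other direction. Cyp3a16 had 38.1, 44.7 and 42.4 CPM in wild-type livers and 53.6, 62.6 and 49.3 CPM in mutants, without overlap. The log2 fold change of 0.40 ± 0.09 (SE) did not pass the threshold (edgeR adjusted p = 0.0606), and with replicate number as a block it did (edgeR adjusted p = 0.00827). DESeq2 gave an adjusted p of 0.0201 for it.

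The 9 Cyp2d genes lie within 424 kb on chromosome 15 (mm9, 82200958 to 82624675). Of the 5 that were tested, 3 were called lower. Cyp2d26 had 19.1, 9.05 and 14.8 CPM in wild-type livers and 6.60, 4.11 and 5.55 CPM in mutants. The wild-type livers differed among themselves more than the mutants, and the groups did not overlap. The log2 fold change was -1.40 ± 0.25 (SE; edgeR adjusted p = 0.0182).

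Cyp2d9, a steroid hydroxylase gene known for its male-biased expression in adult mouse liver, had few reads, with 22, 20 and 24 counts in wild-type livers and 4, 9 and 6 in mutants. Its log2 fold change was -1.73 ± 0.34 (SE; edgeR adjusted p = 0.0319), and DESeq2 did not call it (adjusted p = 0.0741). Of its exonic 50-base stretches, 72.7% occurred once in the genome. Cyp2d37-ps, named as a pseudogene, had 16, 14 and 15 counts in wild-type livers and 1, 0 and 0 in mutants. The ratio of mutant to wild-type counts, scaled for library size, was 0.0230, with an exact 95% interval of 0.000571 to 0.135 that covers counting error only (edgeR adjusted p = 0.00401).

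The other 2 tested Cyp2d genes were not called. Cyp2d10 had 15.4, 13.2 and 14.03 CPM in wild-type livers and 10.9, 12.6 and 11.5 CPM in mutants, with a log2 fold change of -0.29 ± 0.11 (SE; edgeR adjusted p = 0.267). Cyp2d22 had 28.5 to 34.4 CPM over the 6 livers, and its groups overlapped.

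Separation of the groups without a call was also seen in Cyp7b1, a hydroxylase of oxysterols, and in Cyp2r1, a vitamin D 25-hydroxylase. Cyp7b1 had 0.763 to 1.32 CPM in wild-type livers and 0.466 to 0.721 CPM in mutants (edgeR adjusted p = 0.294). Cyp2r1 had 0.982 to 1.22 CPM in wild-type livers and 0.699 to 0.794 CPM in mutants (edgeR adjusted p = 0.428). In all, the groups did not overlap in 9 of the 27 tested P450 genes, beside 20.3% of all genes tested. All mutants lay below all wild-type livers in 8 of the 27 (29.6%), beside 9.84% of all genes tested.

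**Figure D1:**
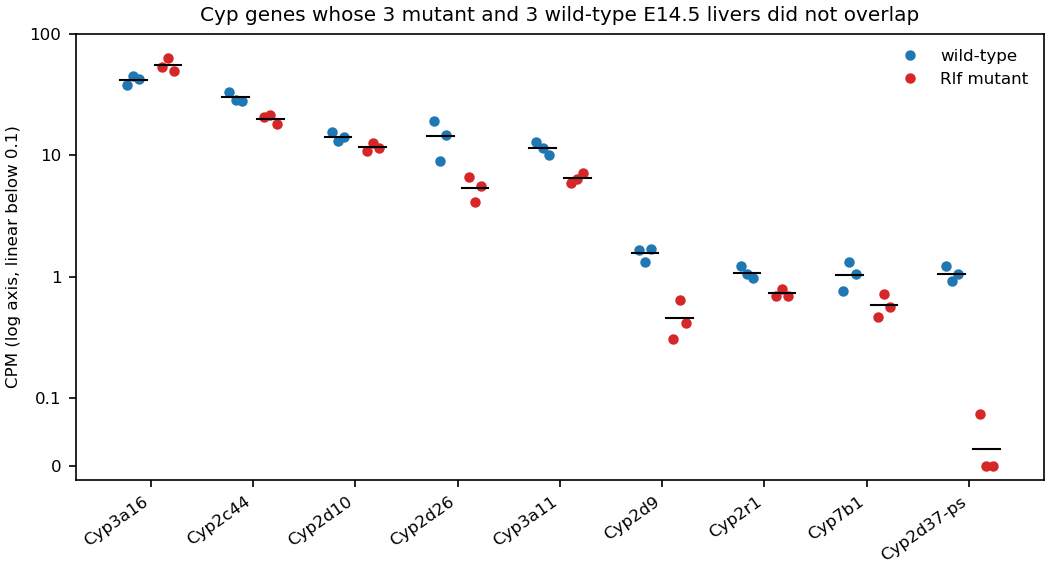
CPM (log axis, linear below 0.1) of the 9 tested Cyp genes whose groups did not overlap, in 3 wild-type (blue) and 3 Rlf mutant (red) E14.5 livers; points are livers and black bars are means. Mutants are lower in 8 genes and higher in Cyp3a16, and Cyp2d37-ps has 2 mutants at 0.

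The bile acid genes were not called. Cyp7a1, the rate-limiting enzyme of bile acid synthesis, had 1.72 to 3.51 CPM over the 6 livers, Cyp8b1 2.096 to 3.68 CPM and Cyp27a1 2.53 to 4.89 CPM. Of the 6 bile acid and sterol genes 5 were tested, of the 21 fatty acid and eicosanoid genes 5, and of the 3 vitamin D genes 1, with no call in any of these groups. These groups too were set by gene symbol, and Cyp2c44 is not in the fatty acid and eicosanoid group. Cyp4v3, a fatty acid hydroxylase gene among the 12 of highest CPM, had 23.9 to 27.7 CPM over the 6 livers, and its groups overlapped.

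Of the genes that work with P450 enzymes, none of the 9 electron transfer genes and none of the 10 heme supply genes was called. Por, which encodes P450 oxidoreductase, had 66.1 ± 3.21 CPM in wild-type livers and 69.1 ± 3.37 CPM in mutants (SD, n = 3 each; edgeR adjusted p = 0.714). Among 25 tested nuclear receptors and regulators, 1 was called. Ahr, the receptor that induces Cyp1 genes, rose from 17.4, 17.6 and 22.4 CPM to 31.2, 26.5 and 27.4 CPM, a log2 fold change of 0.57 ± 0.11 (SE; edgeR adjusted p = 0.0319). Of the Cyp1 genes, Cyp1a1 and Cyp1a2 did not pass the filter. Cyp1b1 had 2.29 ± 0.75 CPM in wild-type livers and 1.73 ± 0.66 CPM in mutants (SD, n = 3 each), with a log2 fold change of -0.41 that was not called (edgeR adjusted p = 0.616).

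Markers of other cells differed between the same livers. Of 8 neutrophil markers 6 were called lower, and none of the 8 was at 0. The 8 summed to 875 to 1284 CPM in wild-type livers and 717 to 831 CPM in mutants. Mpo and Prtn3 were the neutrophil markers not called, with log2 fold changes of 0.13 and -0.016, so the fall was not shared by the whole list. Of 5 megakaryocyte markers 1 was called higher (Pf4), and their sum was 474 to 495 CPM in wild-type livers and 557 to 627 CPM in mutants. None of the 9 erythroid, 7 tested macrophage, 5 endothelial and 5 mesenchymal markers was called. Of the 4 tested adrenal markers 1 was called lower, Mc2r, at 1.74 ± 0.32 CPM in wild-type livers and 0.335 ± 0.21 CPM in mutants (SD, n = 3 each). The 5 adrenal markers summed to 41.7 to 46.9 CPM in wild-type livers and 42.6 to 43.5 CPM in mutants. Most of this was Hsd3b1, at 27.4 to 33.5 CPM over the 6 livers, and Akr1b7, at 8.46 to 14.1 CPM, while Nr5a1, a defining gene, was at 0 in 5 livers and at 0.0721 CPM in 1. None of the 3 tested gut and pancreas markers was called, and the 5 listed summed to 19.5 to 25.1 CPM in wild-type livers and 15.8 to 18.7 CPM in mutants. Fabp2 was at 14.4 to 18.2 CPM over the 6 livers, and the defining gut gene Cdx2 was at 0.0776 CPM or less. Pdx1, also listed, was at 0.229, 0.198 and 0 CPM in wild-type livers and at 0 CPM in all mutants. Cpa1, a pancreatic enzyme gene, was at 8.62, 1.39 and 1.61 CPM in wild-type livers and 0.0776, 0.216 and 0.913 CPM in mutants, so wild-type replicate 1 stood apart. With replicate number as a block, calls over all genes, in both directions, rose from 197 to 460, and 4 more markers were called. Marco (macrophage, edgeR adjusted p = 0.0235) and Cpa1 (pancreas, 0.00759) were lower in mutants. Itga2b (megakaryocyte, 0.0322) and Akr1b7 (adrenal, 0.0277) were higher. The log2 fold changes of these 4 without the block were -0.59, -3.16, 0.31 and 0.53. The part of these cells in the P450 differences was not tested.

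Methylation was measured within 1 kb to either side of each gene start, using the CpGs that each of the 12 libraries covered with 6 reads or more. Windows with at least 5 such CpGs were tested, which left 74 of the 93 P450 genes. P450 starts were poor in CpGs, with a median of 17 in the reference window, beside 34 over all autosomal genes. The 9 Cyp3a windows held 2 to 8 reference CpGs and none could be tested, so Cyp3a11 and Cyp3a16 have no tested window. The 300 bases around 6 starts (250 before and 50 after, mm9, sense strand) are shown to set these sparse starts beside Cyp26c1, which gained methylation, and beside a CpG-rich start, that of Cyp20a1. Capitals mark CpGs.
Cyp3a11: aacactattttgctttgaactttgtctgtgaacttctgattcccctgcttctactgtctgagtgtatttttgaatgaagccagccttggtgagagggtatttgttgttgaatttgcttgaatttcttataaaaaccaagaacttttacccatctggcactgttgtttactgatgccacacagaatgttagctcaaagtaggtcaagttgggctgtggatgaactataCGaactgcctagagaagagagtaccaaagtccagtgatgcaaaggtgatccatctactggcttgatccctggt
Cyp3a16: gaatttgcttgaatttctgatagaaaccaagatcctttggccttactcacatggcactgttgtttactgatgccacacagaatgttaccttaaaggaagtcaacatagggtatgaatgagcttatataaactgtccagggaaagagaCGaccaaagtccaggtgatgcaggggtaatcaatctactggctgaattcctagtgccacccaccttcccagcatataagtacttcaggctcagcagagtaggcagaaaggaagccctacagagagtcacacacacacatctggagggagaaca
Cyp2d26: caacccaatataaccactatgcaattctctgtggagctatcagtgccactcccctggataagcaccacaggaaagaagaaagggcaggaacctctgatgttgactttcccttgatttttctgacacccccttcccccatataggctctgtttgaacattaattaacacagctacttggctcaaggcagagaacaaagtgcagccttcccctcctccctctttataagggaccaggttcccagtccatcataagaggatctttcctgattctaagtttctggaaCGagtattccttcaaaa
Cyp11a1: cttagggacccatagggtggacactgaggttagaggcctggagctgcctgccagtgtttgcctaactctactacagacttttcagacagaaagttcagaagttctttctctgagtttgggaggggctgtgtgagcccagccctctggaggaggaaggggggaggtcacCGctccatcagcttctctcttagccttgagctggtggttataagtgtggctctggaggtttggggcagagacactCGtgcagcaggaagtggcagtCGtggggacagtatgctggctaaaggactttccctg
Cyp26c1: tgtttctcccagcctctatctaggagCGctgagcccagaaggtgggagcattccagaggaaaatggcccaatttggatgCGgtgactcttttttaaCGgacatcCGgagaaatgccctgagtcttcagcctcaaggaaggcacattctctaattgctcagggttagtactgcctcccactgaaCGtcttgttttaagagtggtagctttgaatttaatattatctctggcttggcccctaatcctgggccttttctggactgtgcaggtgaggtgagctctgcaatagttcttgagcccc
Cyp20a1: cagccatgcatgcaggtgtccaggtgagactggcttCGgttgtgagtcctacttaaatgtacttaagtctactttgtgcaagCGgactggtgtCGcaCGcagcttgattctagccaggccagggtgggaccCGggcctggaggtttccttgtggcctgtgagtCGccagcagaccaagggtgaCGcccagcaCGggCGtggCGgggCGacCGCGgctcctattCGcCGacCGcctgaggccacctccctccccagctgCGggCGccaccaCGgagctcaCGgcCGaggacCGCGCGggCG

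These stretches are chr5:146691491-146691790 (minus strand), chr5:146230543-146230842 (minus), chr15:82624626-82624925 (minus), chr9:57862570-57862869 (plus), chr19:37759821-37760120 (plus) and chr1:60399917-60400216 (plus). They hold 1, 1, 1, 3, 5 and 25 CpGs. The letters TATAAA, on either strand, occurred in 34 of the 93 P450 stretches of this length (36.6%) and in 15.8% of those of all 34653 autosomal genes. GTTAAT, searched in the same way, occurred in 8 of the 93 (8.60%) and in 7.28% of all.

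P450 windows fell into a methylated and an unmethylated set. In wild-type E10.5 embryos 52 of the 74 were methylated at 50% or more, 20 were below 20%, and 2 lay between. Of all 29801 windows, 14399 were at 50% or more. The quartiles were 2.68% and 84.1% over all windows and 12.8% and 85.0% over the P450 windows, so both were spread widely. The low P450 windows included Cyp1b1, Cyp26a1, which degrades retinoic acid, and Cyp24a1, which degrades vitamin D, all at or below 0.631%. The start of another gene lies within 1 kb of the start in 7 of the 93 P450 genes, Cyp24a1 (Pfdn4) and Cyp39a1 (Slc25a27) among them, so those windows are shared. The xenobiotic windows were mostly methylated, at 50% or more in 28 of 31, as were all 7 steroid hormone windows. The bile acid and sterol windows were low in 4 of 6, with Cyp7a1 and Cyp8b1 as the methylated pair.

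From wild-type E10.5 embryos to wild-type E14.5 livers, 46 P450 windows fell and 1 rose by more than 15 points at an adjusted p below 0.05, beside 33.6% of all 29801 windows that fell and 0.537% that rose. Among windows at 50% or more in E10.5 embryos, 46 of 52 P450 windows fell, beside 68.4% of all such windows. The median difference of these 52 was -23.5 points, and it was -19.0 points over the 14399 such windows of all genes. Without the female wild-type liver of E14.5, which leaves males alone in the wild-type contrast, Cyp11a1 differed by -37.3 points and Cyp26c1 by 66.7 points. In mutants 44 P450 windows fell between the same stages, beside 32.4% of all windows, and 43 of the 44 also fell in wild type. Cyp26c1 rose in mutants as well, beside 0.517% of all windows. No window of any gene was called for a genotype difference in this change (0.0% of windows), and 3 P450 windows had an unadjusted p below 0.05, beside 4.56% of all windows.

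The largest fall was that of Cyp11a1, which makes pregnenolone from cholesterol. Its window (15 CpGs) was at 81.5% and 76.2% in wild-type E10.5 embryos, 41.5% and 44.8% in E14.5 livers and 48.5% and 55.0% in E18.5 livers. The mean difference from E10.5 to E14.5 was -35.7 points (edgeR adjusted p = 2.56e-11). The 3 CpGs printed above were lower still, at 62.1%, 11.3% and 19.2% of the pooled reads of each stage. Cyp11a1 did not pass the RNA filter in E14.5 liver.

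Cyp4f13, a fatty acid hydroxylase gene that was expressed in liver, was at 68.9% and 68.3% in wild-type E10.5 embryos and at 35.3% and 32.4% in E14.5 livers, a difference of -34.8 points (edgeR adjusted p = 2.37e-10). Cyp2d26 was at 84.4% and 87.6% and then at 52.6% and 56.6%, a difference of -31.4 points (edgeR adjusted p = 7.54e-12). The next were Cyp2b23 (-30.1 points) and Cyp2b19 (-29.6 points). Neither was among the 27 expressed genes. Of the 52 methylated windows, the 14 of expressed genes had a median difference of -25.0 points and the 38 of other genes -22.6 points, and this difference between them was not tested.

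Cyp26c1, a retinoic acid hydroxylase gene on chromosome 19 (mm9, 37760071 to 37767888), was the P450 gene that gained methylation. Its 52 covered CpGs were at 5.7% and 3.6% in wild-type E10.5 embryos and at 71.4% and 71.8% in E14.5 livers, a rise of 66.9 points (edgeR adjusted p = 4.44e-23). E18.5 livers were at 67.8% and 72.0%. Mutants had 6.9% and 6.2%, then 73.96% and 74.2%, then 73.9% and 72.8%, so the rise was present in both genotypes. The 5 CpGs printed above were at 2.80% in wild-type E10.5 embryos and 79.7% in wild-type E14.5 livers. The other 19 windows below 20% in E10.5 embryos differed by -0.98 to 6.95 points.

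**Figure D2:**
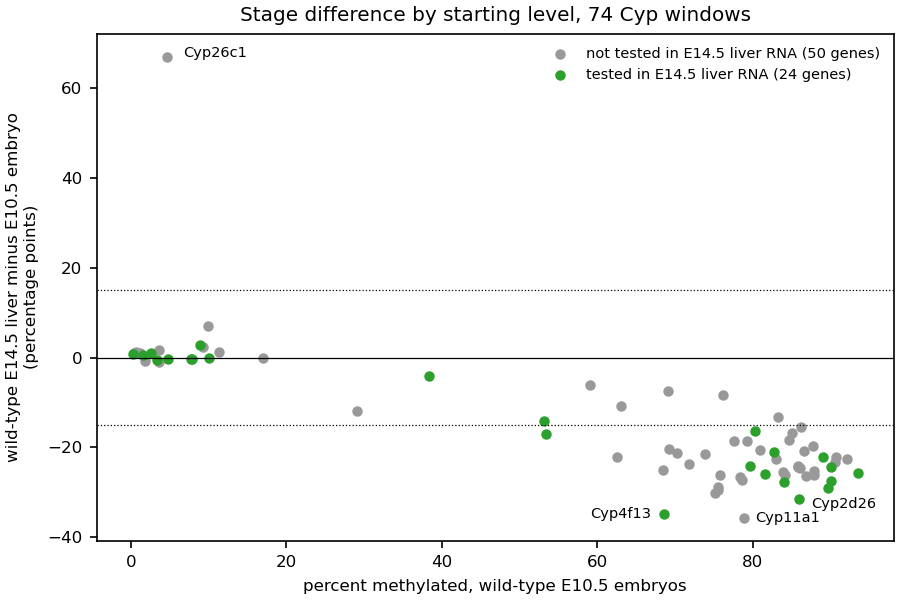
Difference in percent methylated between wild-type E14.5 livers and E10.5 embryos (percentage points) against the E10.5 level, for 74 Cyp windows; green points are the 24 genes also tested in liver RNA and dotted lines mark 15 points. Windows below 20% stay near 0 except Cyp26c1, at 66.9 points, and methylated windows lie below 0.

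**Figure D3:**
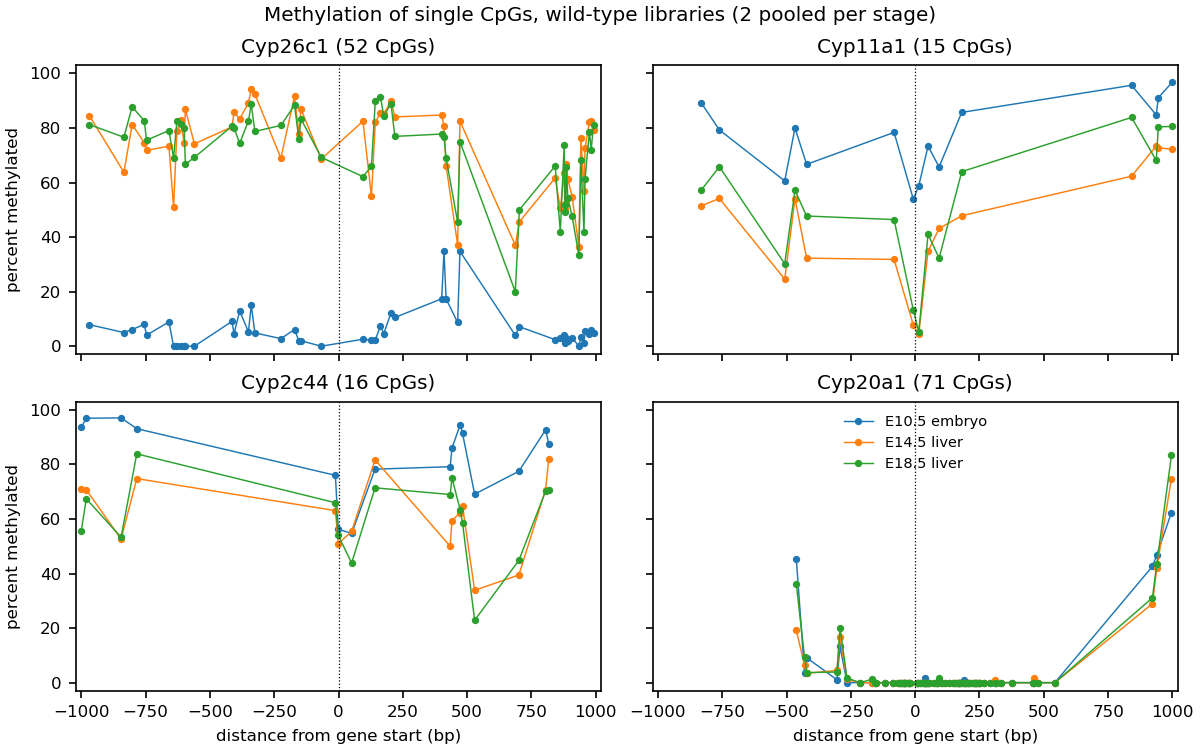
Percent methylated of single CpGs against distance from the gene start (bp) in wild-type libraries, 2 pooled per stage, for Cyp26c1, Cyp11a1, Cyp2c44 and Cyp20a1. Cyp26c1 is low across the window in E10.5 embryos (blue) and high in E14.5 (orange) and E18.5 (green) livers, Cyp11a1 dips at its start in liver, and Cyp20a1 is near 0 around its start at every stage.

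From wild-type E14.5 to E18.5 livers, 2 P450 windows rose and none fell, beside 0.755% and 0.0369% of all windows. Cyp2b19 went from 43.4% and 48.7% to 59.8% and 63.8% (15.7 points; edgeR adjusted p = 0.0337). In mutants Cyp2b19 went from 51.4% and 44.7% to 60.2% and 53.8%, which was not called (8.93 points; edgeR adjusted p = 0.148). In wild-type livers Cyp2j11 went from 49.4% and 48.3% to 66.7% and 61.3% (15.2 points; edgeR adjusted p = 0.0412). Both rest on 7 CpGs. Cyp2j11 lost its call with CpGs of at least 1 read (12.9 points; edgeR adjusted p = 0.0522) or at least 10 reads (edgeR adjusted p = 0.0507), and as means over CpGs Cyp2b19 and Cyp2j11 differed by 14.3 and 13.9 points. Sex differs here too, with 1 male and 1 female wild-type liver at E14.5 and females alone at E18.5. With replicate number as a block 1 was called, Cyp2b19, and without either of the 2 wild-type livers of E14.5, or either of E18.5, none was. Without either mutant liver of E14.5, Cyp2b19 alone was called. No genotype difference in this change was called (0.0% of windows), with 4 P450 windows at an unadjusted p below 0.05, beside 3.42% of all windows.

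No P450 window was called between the genotypes at any stage. The calls were 0 of 74 at E10.5, E14.5 and E18.5, beside 0.413%, 0.188% and 0.309% of all windows. At an unadjusted p below 0.05 there were 7, 6 and 14 P450 windows, beside 13.4%, 10.6% and 10.7% of all windows, and limma also called 0 at each stage. Among the 52 methylated P450 windows there were 3, 2 and 9, beside 9.75%, 6.32% and 11.1% of all methylated windows. Most P450 windows were within 5 points between genotypes, 67 of 74 at E10.5, 61 at E14.5 and 49 at E18.5. The 74 include the 20 that were below 20% in wild-type E10.5 embryos. At E18.5 the upper quartile of the difference was 5.21 points over the 74 and 2.74 points over all windows. The median difference (mutant minus wild type) at E10.5 was 0.54 points over the methylated P450 windows and 1.10 points over all methylated windows. At E14.5 these medians were 1.52 and 1.92 points. The median difference at E18.5 was 4.01 points over the methylated P450 windows and 2.24 points over all methylated windows. Without regard to level it was 2.40 and 0.41 points. The median over the methylated P450 windows was 62.6% and 64.2% in the wild-type libraries, 67.7% in mutant replicate 1, which has the highest autosomal methylation of that stage, and 64.0% in mutant replicate 2, which lay between the wild-type values. Without mutant replicate 1 the median difference was 1.59 points over these windows and 0.47 points over all methylated windows.

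The differences of greatest size did not pass the test. At E10.5 they were Cyp4f16 (-9.04 points), Cyp4f15 (8.51 points) and Cyp2c67 (-6.74 points), and the sign of Cyp4f15 turned with a window of 500 bp to either side (-2.59 points) and as a mean over CpGs (-2.08 points). At E14.5 they were Cyp11a1 (9.05 points), Cyp2b23 (7.75 points) and Cyp2c67 (-7.45 points), which was 0.97 points without wild-type replicate 2 and -15.9 points without wild-type replicate 1. At E18.5 they were Cyp2e1 (11.9 points), Cyp2c65 (11.8 points) and Cyp2c40 (10.8 points). With single libraries left out, Cyp4f16 was -13.6 to -4.51 points, Cyp4f15 3.70 to 13.3 points and Cyp2c67 at E10.5 -9.46 to -4.02 points, with the smallest size without mutant replicate 1 for Cyp4f16 and Cyp2c67 and without wild-type replicate 2 for Cyp4f15. Their greatest size was without mutant replicate 2 for Cyp4f16 and Cyp2c67 and without wild-type replicate 1 for Cyp4f15. Cyp4f15 was 4.58 points without mutant replicate 1, and Cyp11a1 was 5.34 points without mutant replicate 2. As a mean over CpGs, Cyp2c40 was 6.17 points and Cyp2c67 at E14.5 was -3.06 points. In the main fit, with all 12 libraries, adjusted p was 0.242 or more for all 9 (edgeR).

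Of the 5 genes with less mRNA in mutant livers, Cyp3a11 had no testable window, and the other 4 had no called methylation difference. At E14.5 Cyp2d26 was at 52.6% and 56.6% in wild-type livers and at 60.2% and 60.0% in mutants (edgeR adjusted p = 0.621). The single CpG in its printed stretch, with 20 to 39 reads per E14.5 library, was at 44.1% of pooled reads in wild-type livers and 61.0% in mutants. The single CpG in the stretch of Cyp3a11 was at 47.5% and 52.1%, and that of Cyp3a16 at 34.4% and 42.9%. These single CpGs were not tested. Cyp2c44 was at 62.3% and 61.4% and at 65.9% and 66.6% (edgeR adjusted p = 0.679). Cyp2d9 and Cyp2d37-ps differed by -1.71 and 1.53 points. Across the 74 genes, the RNA level per kilobase and the methylation of wild-type E14.5 livers had a Spearman rho of -0.14, with genes of 1 set of samples as points, and covered CpG number and methylation had a rho of -0.50.

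**Figure D4:**
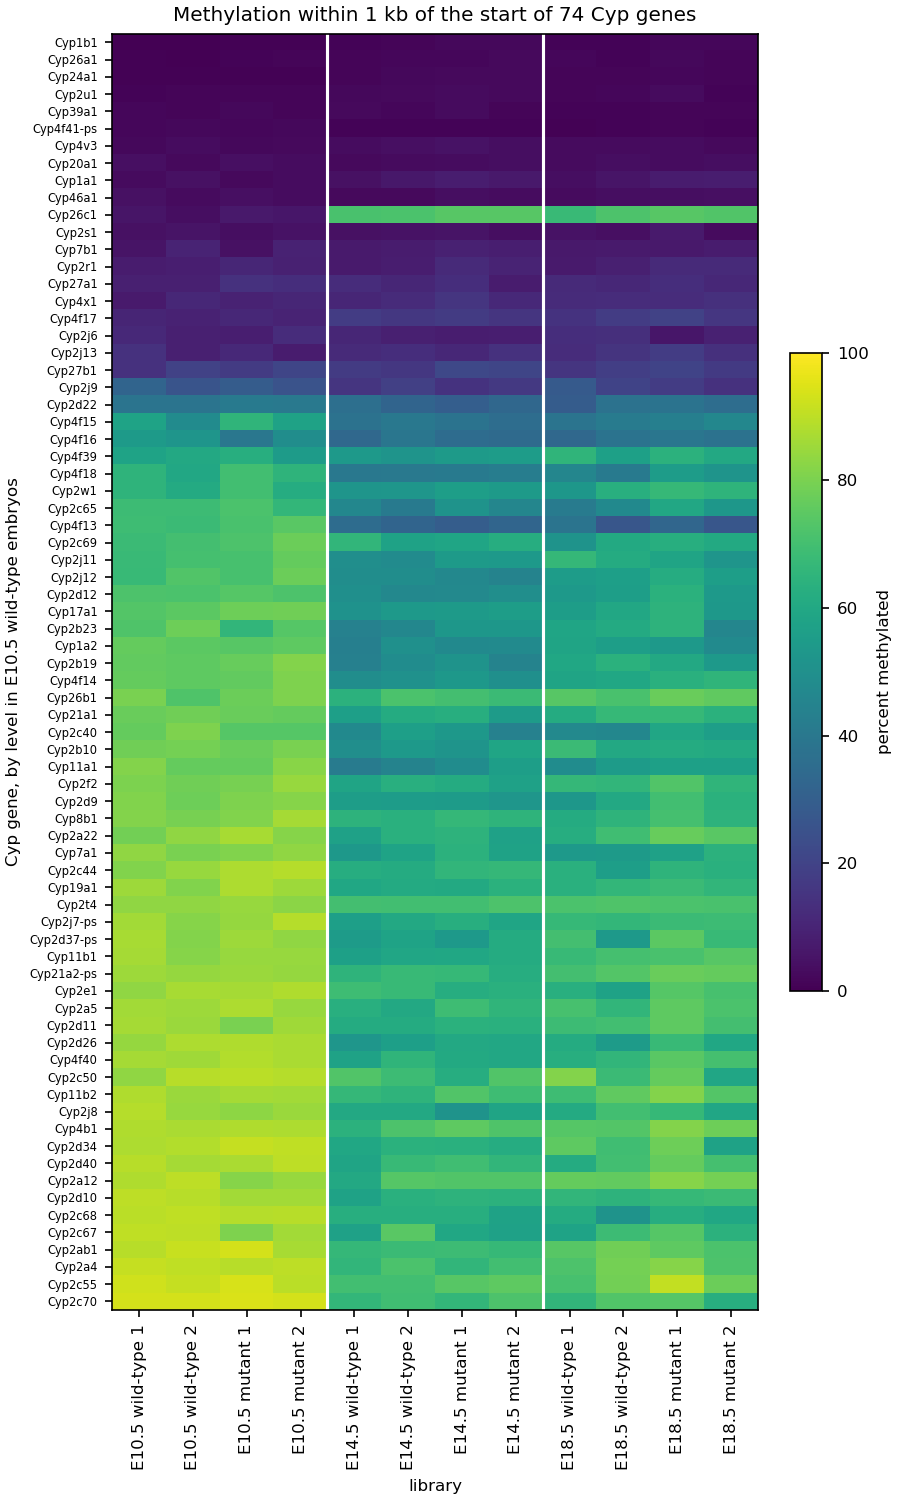
Percent methylated (colour, 0 to 100) within 1 kb of the start of 74 Cyp genes, in rows ordered by the level in E10.5 wild-type embryos, in 12 libraries. The lower rows are brightest in the 4 E10.5 libraries, and Cyp26c1 is the row that is dark in E10.5 embryos and bright in the 8 liver libraries.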

How the data were processed

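The authors deposited raw counts per gene for RNA-seq (polyA libraries, single-end 50-base reads, TopHat on mm9 and htseq-count with Ensembl annotation, without strand) and, for WGBS, counts of methylated and unmethylated reads with a percent per CpG (Bismark with Bowtie2, mm9 changed at FVB/NJ variant positions, PCR duplicates removed). The deposited percent was not used. Names and starts came from GENCODE vM1 on NCBIM37 (37205 of 37991 IDs matched). RNA was tested with edgeR 4.0.16 (quasi-likelihood, TMM, filterByExpr, 14183 genes), WGBS windows with edgeR on methylated and unmethylated counts, 1 intercept per library and 12 libraries in 1 fit, with p-values adjusted by Benjamini-Hochberg over all features. CPM are counts scaled to a common library size after TMM.

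Genes named are those called, the 12 of highest CPM, those with groups that do not overlap, the 5 largest called rises and falls per stage and the 3 largest genotype differences per stage. Other genes with values (Cyp1b1, Cyp7a1, Cyp8b1, Cyp24a1, Cyp26a1, Cyp27a1, Cyp4b1 and genes of the lists that were not called, Por among them) were chosen as examples after their values were seen. The members and lists were chosen with earlier results of these data known. In RNA-seq, deviations from the group mean were correlated between same-numbered livers (0.125, 0.226 and 0.409 for replicates 1, 2 and 3 over 14183 genes), and replicate 3 is female in both genotypes, so the block is given where it changes a call. Both fits were tested on simulated data. At the mean replicate spread measured in these libraries the WGBS fit recovered most of the changed windows. At a larger spread it recovered none, so recovery depended on the spread that was set. The simulated windows were of all genes, and recovery in P450 windows alone, or by size of difference, was not tested. P450 genotype differences were at most 11.9 points (Cyp2e1 at E18.5), and the simulations do not show whether differences this small would be recovered. P450 windows held fewer covered CpGs, with a median of 16 beside 34 over all windows. Alternatives covered DESeq2 1.42.0, limma, normalization, filters, coverage, window, thinning, sex, replicate number and leaving out each library. H3K4me1 ChIP-seq was not analysed here.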

Additional observations from a re-analysis of the deposited data

How the results depend on the processing

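The 5 P450 genes called in RNA, all lower, became 4 lower and 1 higher with DESeq2 (Cyp2d9 lost, Cyp3a16 gained), 5 lower and 1 higher with the replicate block (6 in all) and 6 lower and 1 higher without the filter on low counts. Calls over all genes were 197, and 256, 460 and 532 under these 3 alternatives. The number of genes tested was not the same in each. Without the filter, the 46 P450 genes that had counts but did not pass it were tested beside the 27. With RLE normalization or sex as a covariate the P450 calls were 5 lower. The count was 1 to 5 with a library left out, and 1 without wild-type replicate 1 or without mutant replicate 1, when Cyp2d37-ps alone was called. Cyp2d37-ps was called under each RNA alternative. Without the filter Cyp4b1 was also called, at 8, 21 and 12 counts in wild-type livers and 2, 4 and 2 in mutants (edgeR adjusted p = 0.0144). It was picked out after its values were seen, and lies 5.54 Mb from Rlf on chromosome 4.

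The count of 2 P450 windows called from E14.5 to E18.5 was 1 with the replicate block, 0 with a window of 500 bp and 0 with limma. It was 0 to 2 with a library left out. It was also 0 with at least 10 CpGs per window, a minimum that left both windows untested. It stayed at 2 with CpGs of at least 1 or at least 10 reads, where Cyp2j11 was lost and Cyp2b23 or Cyp1a2 was gained. The count of 47 from E10.5 to E14.5 was 34 to 57 over its alternatives and 47 with the replicate block. The counts of 34 came with a window of 500 bp and with at least 10 CpGs per window, settings that leave fewer P450 windows to test. These counts too are given without a share over all windows. No P450 window was called for genotype or interaction under any alternative run, the block included. In WGBS the same-numbered libraries did not deviate together (r = 0.053, -0.029 and -0.038). Signs turned only for values that were not called. With a library left out, the log2 fold change was -0.11 to 0.10 for Cyp2c68, where it turned without wild-type replicate 1, mutant replicate 1 or mutant replicate 3. It was -0.021 to 0.11 for Cyp2d22, -0.22 to 0.049 for Cyp39a1 and -0.034 to 0.18 for Cyp4f13. The difference of Cyp2c67 at E14.5 was -15.9 to 0.97 points, with the extremes without wild-type replicates 1 and 2. That of Cyp4f15 at E10.5 was -2.59 points with 500 bp and -2.08 points as a mean over CpGs. The causes were not tested. Without the 15-point minimum, genotype calls of P450 windows were still 0 at each stage, and stage calls were 57 and 3, in either direction. The 57 include small changes, such as a rise of 0.91 points in Cyp1b1, and are given without a share over all windows.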
